A study of Homo sapiens with 4 samples.

Results

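The 10 genes followed here encode transcription factors known for roles in stem and progenitor cells and were read in BT-474 breast cancer cells with and without forced expression of Neuropilin-1. They are 10 of the 18882 genes listed in the deposited tables, chosen by name and read by NCBI Gene ID: SOX2 (6657), SOX4 (6659), SOX6 (55553), SOX9 (6662), SOX12 (6666), SOX13 (9580), TFCP2L1 (29842), KLF4 (9314), KLF5 (688) and MYC (4609). The study compared the transcriptomes of BT-474 control cells, labelled wild-type, and BT-474 NRP-1 cells, which were stably transfected with a pPTuner IRES2 plasmid carrying NRP-1, isolated as colonies and kept under G418. BT-474 is an established luminal, ERBB2-amplified breast cancer cell line, and NRP-1 is a cell surface co-receptor for semaphorins and vascular endothelial growth factors. RNA was sequenced in 2 libraries per group, control replicates 1 and 2 and NRP-1 replicates 2 and 3. No empty-vector library was analysed here, so the plasmid, the selection and the colonies cannot be told apart from NRP-1 itself. Whether the libraries of a group came from separate cultures or colonies is not given in the sources used here, so the p-values measure only the spread between these libraries, which may be technical.

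SOX factors bind DNA through an HMG box. SOX2 belongs to the SoxB1 group of pluripotent and neural progenitor cells, SOX4 and SOX12 to SoxC, SOX6 and SOX13 to SoxD, and SOX9, a factor of mammary luminal progenitors, to SoxE. KLF4 and KLF5 bind GC-rich and CACCC motifs through zinc fingers, MYC binds E-boxes as a dimer with MAX, and TFCP2L1, of the CP2 family, acts in the naive pluripotency network downstream of LIF and STAT3. KLF4, MYC and SOX2 are also the classic reprogramming factors used together with POU5F1.

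The 6 SOX genes differ in level by orders of magnitude but share a conserved stretch near the start of the HMG box. The 27 bases shown encode 9 residues of the box, and the genes differ there at few bases. The stretch was located by the residues RPMNAFM in each translation, so likeness at these residues was fixed by the choice. This short stretch does not sort the genes into their SOX groups. SOX4 and SOX12 (SoxC) differ from SOX2 at 2 and 4 bases, as do SOX13 and SOX6 (SoxD). They are read from the GENCODE transcripts (release 29) of genes on chromosomes 3, 6, 11, 17, 20 and 1, in the order listed, and lie in coding sequence. Capitals mark bases that differ from SOX2.
SOX2: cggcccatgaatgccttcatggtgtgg
SOX4: cgAcccatgaaCgccttcatggtgtgg
SOX6: cgAccAatgaatgcAttcatggtTtgg
SOX9: cggcccatgaaCgccttcatggtgtgg
SOX12: AggccGatgaaCgcAttcatggtgtgg
SOX13: AggcccatgaaCgccttcatggtgtgg
Over the 237 bases of the whole box, the SoxC pair SOX4 and SOX12 were 84.0% identical and the SoxD pair SOX6 and SOX13 78.9%. The other pairs lay between 57.0% for SOX6 with SOX9 and 73.0% for SOX4 with SOX9.

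The expected counts of all genes summed to between 8243595 and 8448926 reads per library, and 14298 genes passed edgeR's filter on low counts. NRP1 gave 7 and 8 reads in control cells against 103 and 62 in the transfected line, and rose by 3.38 ± 0.42 (log2, SE, adjusted p = 0.044 in edgeR's quasi-likelihood fit after Benjamini-Hochberg adjustment). The biological coefficient of variation was 0.0644 between the controls and 0.225 between the NRP-1 libraries. All 10 luminal markers were listed, with ERBB2, KRT19 and KRT8 at 1300, 1240 and 1140 FPKM over the 4 libraries. Of the basal markers, KRT17, TP63 and MYLK reached 0.402, 1.06 and 1.83 FPKM.

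By level per transcript length (FPKM, scaled to transcript length and to the mapped fragments), the 10 genes split into 7 that were well expressed and 3 with few reads. In control cells MYC led with 56.5 ± 0.184 FPKM (SD, n = 2), followed by SOX4 with 55.7 ± 0.495, KLF4 with 43.6 ± 5.11, SOX9 with 38.5 ± 0.933, SOX13 with 27.4 ± 0.141, SOX12 with 19.8 ± 1.87 and KLF5 with 13.3 ± 0.361. TFCP2L1 stood at 1.25 ± 0.403, SOX6 at 0.095 ± 0.0212 and SOX2 at 0.025 ± 0.0354. No neighbours in this order had overlapping ranges, although the lowest MYC value, 56.39, and the highest SOX4 value, 56.08, were close.

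In BT-474 NRP-1 cells the order changed mainly through MYC, which moved from the first to the fifth place with 19.5 ± 11.3 FPKM (SD, n = 2). SOX4 led with 35.9 ± 1.06, then KLF4 with 32.0 ± 0.099, SOX9 with 29.5 ± 1.41 and SOX13 with 25.7 ± 1.73. SOX12 had 18.6 ± 2.40 and KLF5 8.68 ± 3.19, while SOX6 reached 0.49 ± 0.0707, SOX2 0.305 ± 0.106 and TFCP2L1 0.215 ± 0.0212. The ranges of SOX13 and MYC, of MYC and SOX12, and of SOX2 and TFCP2L1 overlapped, so these neighbours did not differ beyond their spread.

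**Figure D1:**
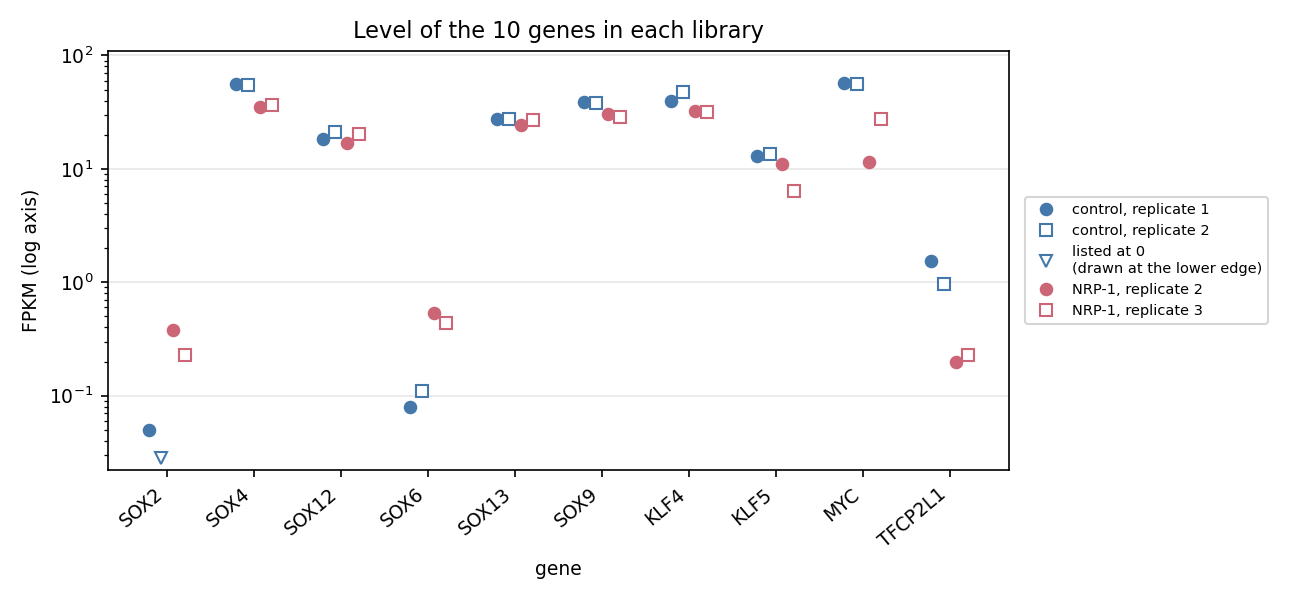
FPKM of the 10 genes (horizontal axis) in each library, on a log axis, with control libraries in blue and NRP-1 libraries in red. Filled circles mark control replicate 1 and NRP-1 replicate 2, and open squares control replicate 2 and NRP-1 replicate 3. SOX2 in control replicate 2 was listed at 0 and is drawn at the lower edge. TFCP2L1 and MYC lie lower in both NRP-1 libraries, SOX6 lies higher, and SOX12 overlaps.

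Of the 10 genes 9 could be tested, and 1 of them, TFCP2L1, passed an adjusted p of 0.05 in edgeR's quasi-likelihood test, in the direction of lower expression. Among all genes tested 1.09% passed, with 0.678% lower and 0.413% higher. At an unadjusted p under 0.05 in edgeR stood 3268 of the 14298 genes tested, the background for the unadjusted counts of the lists below. DESeq2 called 4 of the 9, with SOX6 higher and SOX4, TFCP2L1 and MYC lower, against 6.67% of all genes. The shares of 1.09% (edgeR) and 6.67% (DESeq2) are the background for the calls in the lists below. Without a test, 7 of the 9 had both NRP-1 libraries below both controls in CPM (counts scaled to the library size), which held for 28.3% of all genes, and SOX6 had both above, which held for 27.9%. The median log2 fold change was -0.48 over the 9 genes and 0.02 over all genes. The 10 genes were chosen with earlier results of these data known, so these counts cannot be read as enrichment over all genes. For a single gene, an exact two-sided permutation test of 2 libraries against 2 cannot give a p below 0.33.

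TFCP2L1, a pluripotency factor also found in kidney and other epithelia, fell in BT-474 NRP-1 cells. It had 119 and 75 reads in control replicates 1 and 2, and 16 and 18 reads in NRP-1 replicates 2 and 3. Both NRP-1 libraries lay far below both controls, and the controls differed more from each other than the NRP-1 libraries did. The level was 11.9 ± 3.91 CPM in control cells and 2.0 ± 0.164 CPM in BT-474 NRP-1 cells (SD, n = 2 each), a difference of -2.56 ± 0.36 (log2, SE), or 5.92-fold, with an adjusted p of 0.0452 in edgeR's quasi-likelihood test. The direction was kept with each library left out, between -2.87 and -2.18. In these fits with a lone library in a group, the call was lost without either control and kept without either NRP-1 library. Calls over all genes moved in the same way. The TFCP2L1 call was also lost in edgeR without the filter on low counts (adjusted p = 0.113) and in both limma fits (adjusted p = 0.146). DESeq2 gave an adjusted p of 5.21e-05.

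No other gene of the CP2 and grainyhead list passed edgeR's test. UBP1, a CP2 factor expressed in many tissues, counted 583 and 548 reads in controls against 754 and 852 in NRP-1 replicates 2 and 3, or 0.45 ± 0.13 (log2, SE), which did not pass (adjusted p = 0.125, edgeR). TFCP2L1 made up 5.30% and 3.47% of the FPKM of the trio of TFCP2, TFCP2L1 and UBP1 in controls, against 0.595% and 0.601% in NRP-1 replicates. GRHL2 and GRHL1, epithelial grainyhead factors of the same superfamily, stood at 34.7 and 19.4 FPKM over the 4 libraries, with log2 fold changes of -0.08 and 0.12 (adjusted p = 0.726 and 0.648). Of the 6 CP2 and grainyhead genes tested, TFCP2L1 was the only one called by edgeR, and the median log2 fold change was 0.17.

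MYC, the proliferation and growth factor, was lower in both NRP-1 libraries but by very different amounts. It had 1113 and 1116 reads in control replicates 1 and 2, 231 in NRP-1 replicate 2 and 553 in NRP-1 replicate 3. The controls were nearly equal, and the NRP-1 libraries differed 2.39-fold between them. MYC stood at 136 ± 0.934 CPM in control cells and 46.0 ± 26.7 in BT-474 NRP-1 cells (SD, n = 2 each), a difference of -1.57 ± 0.38 (log2, SE) or 2.96-fold, which did not pass edgeR's test (adjusted p = 0.0893, Benjamini-Hochberg). DESeq2 called it, with an adjusted p of 0.000338. Omitting NRP-1 replicate 2 gave -1.08, and omitting NRP-1 replicate 3 gave -2.33.

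That spread was larger than in most genes. Among 9148 genes with at least 100 reads in every library, the log2 ratio of NRP-1 replicate 3 over replicate 2 lay between -0.59 and 0.71 for the middle 90 percent, while MYC had 1.26, and 127 genes (1.39%) differed by more. The same ratio of KLF5 was -0.76, in the other direction, with 623 genes (6.81%) further from 0. KLF4 had 0.00, SOX4 0.07 and SOX9 -0.09. Between the controls the middle range was -0.25 to 0.29, and MYC had -0.01.

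**Figure D2:**
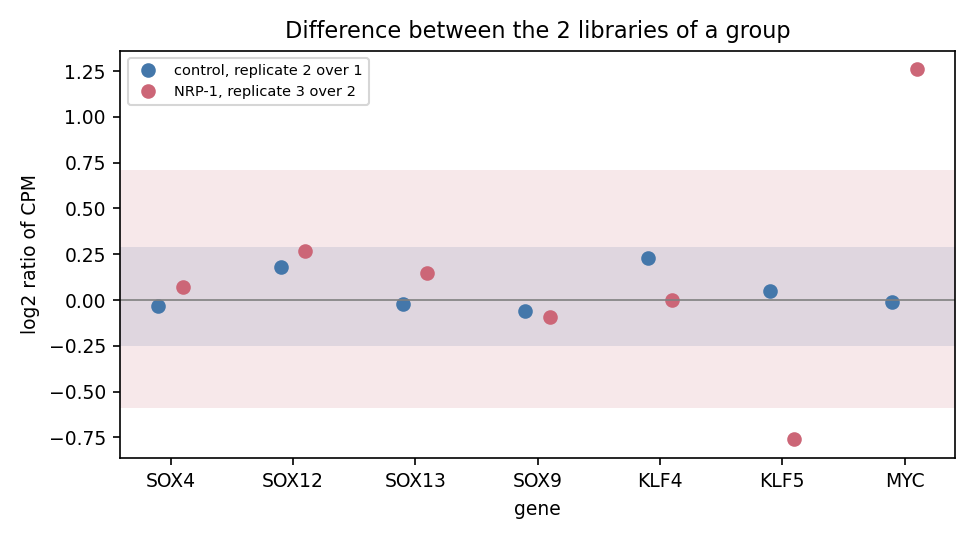
Log2 ratio of CPM between the libraries of one group for the 7 genes with at least 100 reads in every library, with controls (replicate 2 over 1) in blue and NRP-1 (replicate 3 over 2) in red. Shaded bands span the 5th to 95th percentile of 9148 genes in each pair. Only MYC (1.26) and KLF5 (-0.76), both in the NRP-1 pair, lie outside their band.

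MYC carried the largest part of its own small family in all 4 libraries. Its share of the FPKM of MYC, MYCN and MYCL was 85.9% and 84.4% in the controls, 51.4% in NRP-1 replicate 2 and 80.9% in NRP-1 replicate 3. MAX, the obligate partner, had 595, 683, 758 and 588 reads (control 1 and 2, then NRP-1 2 and 3), and overlapped between groups. MXD3, a MAX partner that represses E-box genes, had 721, 710, 711 and 1024 reads and also overlapped. None of the 23 genes of the MYC network passed edgeR's test (4 had an unadjusted p under 0.05), and their median log2 fold change was 0.15. DESeq2 called 2, MYC and MXI1, against 6.67% of all genes. MXI1 was named after its values were seen. MXI1 had 216 and 168 reads in the controls and 108 and 49 in the NRP-1 libraries. Its log2 fold change was -1.35 (adjusted p = 0.0234 in DESeq2 and 0.116 in edgeR).

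Of 39 tested genes known as MYC targets, 1 passed edgeR's test. An unadjusted p under 0.05 was seen in 12 of the 39, against 3268 of 14298 among all genes. A log2 fold change above 0 was seen in 30 and below 0 in 9, against 7401 of 14298 above 0 among all genes, with a median of 0.27, and the called gene, SLC3A2, was lower. SLC3A2, the heavy chain of several amino acid transporters, had control counts of 4466 and 4540 reads and NRP-1 counts of 1850 and 1967, and fell (log2 fold change -1.30, edgeR's adjusted p = 0.0345). NPM1, HSPD1 and PHB1, the targets with the highest mean FPKM over the 4 libraries, a rank that differed between the groups, had log2 fold changes of -0.10, 0.03 and 0.29 (adjusted p = 0.75, 0.949 and 0.468) and overlapped between groups. DESeq2 called 6 of the 39 targets, against 6.67% of all genes. SLC3A2, its partner SLC7A5 (-0.89) and SHMT2 (-0.71) were lower, and ODC1 (0.72), LDHA (0.71) and TFRC (0.49) higher. All but SLC3A2 were named after their values were seen.

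SOX4 was the most highly expressed SOX gene and was lower in both NRP-1 libraries with little spread. This SoxC factor, active in progenitor cells and epithelial plasticity, had 2293 and 2281 reads in the controls and 1461 and 1534 in the NRP-1 libraries. The groups were well separated and libraries within each were nearly equal. Its level was 280 ± 3.49 CPM against 176 ± 5.89 CPM (SD, n = 2 each), a difference of -0.67 ± 0.11 (log2, SE), which missed edgeR's threshold (adjusted p = 0.0585) and passed DESeq2's (adjusted p = 0.0036). Leaving out any 1 library gave values from -0.70 to -0.65.

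SOX12, the other SoxC member, did not separate the groups. Its controls held 716 and 824 reads and its NRP-1 libraries 668 and 807, and the difference of -0.12 ± 0.15 (log2, SE) did not pass (adjusted p = 0.672, edgeR). SOX9 had 1289 and 1255 reads in the controls and 1020 and 960 in the NRP-1 libraries. Both NRP-1 libraries lay below both controls, at -0.42 ± 0.12 (log2, SE), and the difference did not pass (adjusted p = 0.114, edgeR; adjusted p = 0.171, DESeq2).

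The SoxD pair differed widely in level. SOX13 had 934 reads in each control and 844 and 935 in the NRP-1 libraries, where CPM of 115, 114, 99.2 and 110 placed both NRP-1 libraries slightly lower. The difference was -0.13 ± 0.12 (log2, SE) and did not pass (adjusted p = 0.569, edgeR). SOX6, a SoxD factor known from cartilage, muscle and erythroid cells, had few reads throughout, 6 and 8 in the controls and 41 and 33 in the NRP-1 libraries. Both NRP-1 libraries lay above both controls, at 4.35 ± 0.669 against 0.856 ± 0.166 CPM (SD, n = 2 each).

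The difference in SOX6 was 2.32 ± 0.41 (log2, SE), or 5.0-fold, the only positive value among the 9 genes tested. It missed edgeR's threshold (adjusted p = 0.0621), passed DESeq2's (adjusted p = 0.0323) and ranged from 2.14 to 2.53 when any 1 library was omitted. On the genome SOX6 overlaps C11orf58, which is encoded on the other strand and had expected counts of 1502.83, 1554.21, 1844.25 and 1823.89. The log2 fold change of C11orf58 was 0.20, which did not pass (adjusted p = 0.336, edgeR). Whether the libraries kept strand is not given in the sources used here, so reads from a stretch shared by both genes cannot be told apart.

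SOX2 was close to the limit of detection in every library. It had 1 and 0 reads in the controls and 8 and 5 in the NRP-1 libraries, too few for edgeR's filter. The groups did not overlap. The mean NRP-1 level of 0.764 CPM (0.941 and 0.587 in replicates 2 and 3) was 2.1-fold above a floor of 3 reads in each control library (0.367 CPM). This ratio leaves out the counting error of the NRP-1 reads, so it is not a firm lower bound. No test was made. SOX2 lies within SOX2-OT, a noncoding gene on the same strand, which had expected counts of 4.02, 1.51, 0 and 3.6, so the assignment of reads between them is uncertain.

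Across the SOX family, 16 of 20 genes were listed and 10 were tested, and none passed edgeR's test (3 at an unadjusted p under 0.05). DESeq2 called SOX4 and SOX6. The 6 genes followed here held 86.5% and 86.8% of the family's summed FPKM in the controls and 81.7% and 78.8% in the NRP-1 libraries. The family's sum was 163 FPKM in both controls and 132 and 144 in the NRP-1 libraries, with a median log2 fold change of -0.02 over its tested genes. SOX4, SOX9 and SOX13 were its 3 most abundant members.

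KLF4 had the highest FPKM of the KLF genes over the 4 libraries (37.8, with KLF6 at 37.0 and KLF13 at 31.1) and lay lower in both NRP-1 libraries. In controls KLF4 stood above KLF6 (43.6 against 37.0 FPKM) and in BT-474 NRP-1 cells below it (32.0 against 37.1). Known as a reprogramming factor and as an epithelial differentiation factor, it had 976 and 1161 reads in the controls and 796 and 798 in the NRP-1 libraries. The spread lay in the controls, and the NRP-1 libraries were nearly equal. KLF4 stood at 131 ± 14.9 against 93.7 ± 0.0750 CPM (SD, n = 2 each), a difference of -0.48 ± 0.13 (log2, SE) that did not pass (adjusted p = 0.112, edgeR; adjusted p = 0.132, DESeq2).

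KLF5, a factor of proliferating epithelium, had 363 and 380 reads in the controls and 309 and 183 in the NRP-1 libraries. Both NRP-1 libraries lay below both controls, chiefly NRP-1 replicate 3. The difference was -0.65 ± 0.26 (log2, SE) with an adjusted p of 0.205 in edgeR, and became -1.09 when NRP-1 replicate 2 was omitted and -0.32 when NRP-1 replicate 3 was. KLF4 and KLF5 together held 21.9% and 23.8% of the FPKM of the 16 listed KLF genes in the controls and 17.6% and 19.1% in the NRP-1 libraries. Of the 20 KLF and SP genes tested none was called by edgeR or DESeq2 (5 had an unadjusted p under 0.05 in edgeR), and the median log2 fold change was -0.01.

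**Figure D3:**
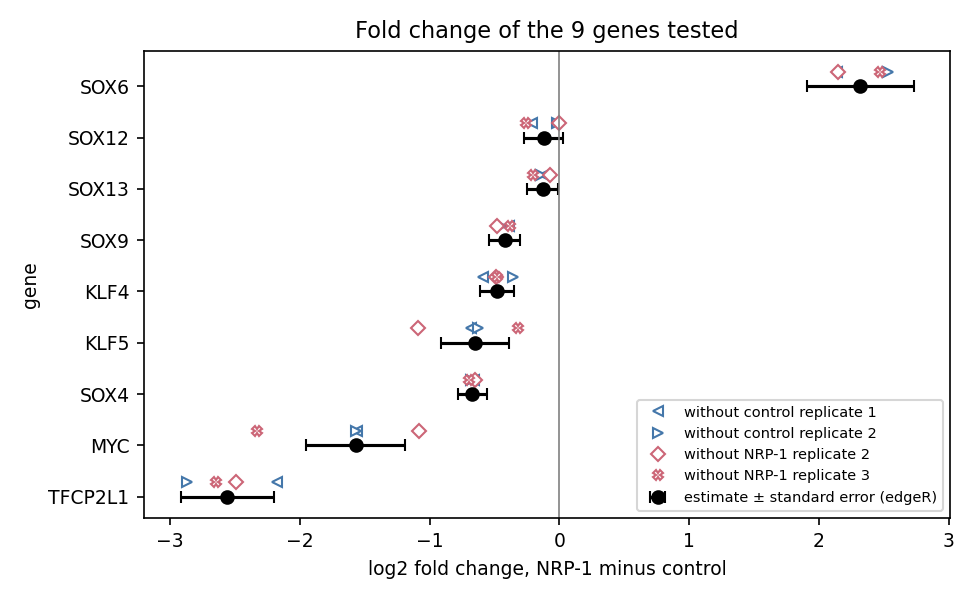
Log2 fold change (NRP-1 minus control) of the 9 genes tested, with black points and bars for edgeR's estimate and its standard error. Open symbols give the value with 1 library left out. SOX6 (2.32) is the only gene right of 0, and MYC and KLF5 move most with the NRP-1 library left out.

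**Figure D4:**
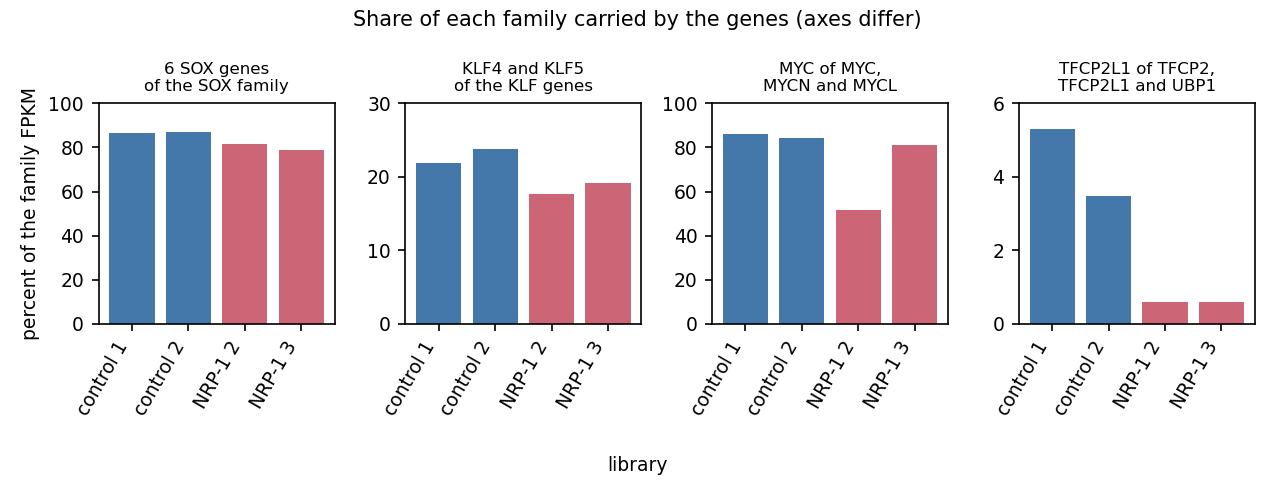
Percent of the summed FPKM of each family that the genes held, in each library (controls blue, NRP-1 red), with a separate vertical axis from 0 in each panel. The TFCP2L1 share is 5.30% and 3.47% in the controls against 0.595% and 0.601%, and the MYC share is lowest in NRP-1 replicate 2 (51.4%).

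Other genes of pluripotency and of its upstream signals were also counted. Of 12 pluripotency genes tested none passed edgeR's test (2 at an unadjusted p under 0.05), with a median log2 fold change of 0.19. POU5F1, the partner of SOX2, had 212 and 242 reads in the controls and 263 and 221 in the NRP-1 libraries and overlapped, although near-identical pseudogene copies make its reads uncertain. TFAP2C stood at 51.0 FPKM in control and 68.9 in BT-474 NRP-1 cells and TBX3 at 14.4 and 26.0, with log2 fold changes of 0.40 and 0.82 (adjusted p = 0.248 and 0.107, edgeR), and DESeq2 called only TBX3 (adjusted p = 0.0252).

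None of the 20 LIF, STAT3 and Wnt pathway genes tested passed in edgeR (4 at an unadjusted p under 0.05), with a median log2 fold change of 0.14. The genes with the highest mean FPKM over the 4 libraries, CTNNB1, GSK3A and RNF43, had log2 fold changes of 0.21, 0.41 and 0.71 (adjusted p = 0.428, 0.144 and 0.0622, edgeR), and DESeq2 called only RNF43, an inhibitor of Wnt receptors (adjusted p = 0.00489). RNF43 entered this rank through the NRP-1 libraries, with 43.4 FPKM against 25.9 in controls, where STAT3 (31.1), GSK3B (27.8) and LRP5 (26.0) lay above it. Of 26 mammary stem and progenitor genes tested, edgeR called ID4, a helix-loop-helix inhibitor expressed in basal mammary progenitors. ID4 had 249 and 199 reads in the controls and 78 and 75 in the NRP-1 libraries, and fell (log2 fold change -1.61, edgeR's adjusted p = 0.044). Of these 26 genes, 13 had an unadjusted p under 0.05 in edgeR, against 3268 of 14298 among all genes. DESeq2 called 5 of the 26, against 6.67% of all genes. ID4, TSPAN8 (-0.83) and RUNX1 (-0.98) were lower, and BMI1 (1.34) and GATA3 (1.34) higher. All but ID4 were named after their values were seen. CD24, EPCAM and FOXA1, with the highest mean FPKM over the 4 libraries, had log2 fold changes of -0.15, -0.31 and 0.44 (adjusted p = 0.716, 0.188 and 0.209).

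Markers of other cell types were low or not listed, with exceptions. None of the 10 luminal markers passed edgeR's test (3 at an unadjusted p under 0.05, and DESeq2 called 1), and their summed FPKM was 4490 in both controls and 4820 to 5550 in the NRP-1 libraries. Of the haematopoietic markers PTPRC had 1.04 FPKM over the 4 libraries, while LYZ had 43.3. CD68, a lysosomal protein, fell from 320 and 281 reads to 107 and 89 (log2 fold change -1.67, adjusted p = 0.0423, edgeR). The summed FPKM of this list was 60.6 to 68.4 in the controls and 48.9 to 51.1 in the NRP-1 libraries, and its part in the results was not tested. COL1A1 stood at 31.8 FPKM over the 4 libraries, while COL3A1 and LUM were at or near 0. The endothelial genes PECAM1, VWF and CDH5 had 0.82, 0.417 and 0.145 FPKM. Fewer cells of a type and less RNA per cell cannot be told apart in such bulk libraries.

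The promoters of the 3 genes with the smallest adjusted p are shown because TFCP2L1, SOX4 and SOX6 head the comparison, as windows of 250 bases upstream of the RefSeq start in GRCh38.p14 and read 5′ to 3′ on the gene's strand. Entries in the RefSeq table were used for 8 of the 10 genes, and SOX9 and MYC are not shown. Capitals mark matches on either strand to the SOX core, spelled ACAAT. They also mark the GC box, which KLF and SP factors can bind and which was searched as GGGCGG. The last motif marked is the CCAAT box, searched by the letters of its name, and no matches overlapped in these windows. The TFCP2L1 window is chr2:121285203-121285452 on the minus strand, the SOX4 window chr6:21593501-21593750 on the plus strand, and the window of the first of 5 SOX6 starts chr11:16738478-16738727 on the minus strand.
TFCP2L1: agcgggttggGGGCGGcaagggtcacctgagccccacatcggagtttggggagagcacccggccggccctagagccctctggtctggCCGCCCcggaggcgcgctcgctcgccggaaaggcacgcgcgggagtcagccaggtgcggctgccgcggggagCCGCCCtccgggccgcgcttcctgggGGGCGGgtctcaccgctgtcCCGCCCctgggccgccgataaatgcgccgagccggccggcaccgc
SOX4: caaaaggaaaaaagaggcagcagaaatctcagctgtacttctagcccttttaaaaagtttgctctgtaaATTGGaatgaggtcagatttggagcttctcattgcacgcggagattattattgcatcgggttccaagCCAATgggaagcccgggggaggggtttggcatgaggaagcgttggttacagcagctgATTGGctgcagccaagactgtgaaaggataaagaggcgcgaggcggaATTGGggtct
SOX6: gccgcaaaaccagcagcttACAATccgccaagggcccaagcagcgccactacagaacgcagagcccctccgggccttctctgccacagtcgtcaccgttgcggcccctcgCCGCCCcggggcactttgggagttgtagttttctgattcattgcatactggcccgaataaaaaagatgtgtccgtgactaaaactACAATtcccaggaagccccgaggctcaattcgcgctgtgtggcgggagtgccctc
TFCP2L1 had 76.8% GC and 5 GC boxes, and SOX4 48.8% GC with 4 CCAAT boxes and no GC box. The window of the first SOX6 start had 58.8% GC with 2 SOX cores and 1 GC box. Windows of the other SOX6 starts, not shown, had 27.2% to 40.8% GC and no GC box. The median over 35116 RefSeq promoters was 58.0% GC. Of these, 42.6% held a GC box, 32.0% a CCAAT box and 24.6% a SOX core, so such matches are common and describe the letters only.

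The study also designed PCR primer pairs for TFCP2L1, SOX2 and SOX6, which show the stretch of each transcript that a second assay would read.
TFCP2L1 forward: agtggcttcaccgcaacag
TFCP2L1 reverse: cacctgagaagctggcaaaga
SOX2 forward: tgcgagcgctgcacat
SOX2 reverse: tcatgagcgtcttggttttcc
SOX6 forward: ccagagcgccgcaaag
SOX6 reverse: tcaagcttcttctgtttcagtgtgt
Each pair matched coding sequence of its own gene and no other of the 10 genes. The TFCP2L1 pair matched 1 of 2 GENCODE transcripts, the SOX2 pair the only one, and the SOX6 pair 10 of 17, of which 8 are coding. The PCR measurements were not analysed here.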

How the data were processed

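RNA-seq of 2 control and 2 NRP-1 libraries was analysed. Per the submitters' processing notes the tools were bcl2fastq 2.16, HISAT2 2.0.1, Bowtie2 2.2.5 and RSEM, with the builds GRCh38 and hg19 named without a role, so file coordinates are not given. The authors deposited, per library, unnormalized expected counts per gene (32.8% of the nonzero values were fractional) and an FPKM value to 2 decimals, with each gene's length. The study and the labels name different HiSeq models. A deposited table of the authors' comparison (group means, log2 ratios and a probability) was not used. Gene IDs were matched to RefSeq symbols (99.4%).

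Expected counts were rounded (those of the 10 genes were whole) and compared by the quasi-likelihood test of edgeR 4.0.16 (R 4.3.3), with TMM and filterByExpr, fitted on all genes with group as the only term and Benjamini-Hochberg adjustment over 14298 genes. CPM used TMM factors of 0.986 to 1.01. The standard error is the absolute log2 fold change over the square root of F. Alternatives were DESeq2 1.42.0, limma 3.58.1 on log2 FPKM with a pseudocount of 1 or 0.1 (mean of at least 0.5 FPKM), library totals, 2 other filters and leaving out each library. Scripts were tested on simulated data. Totals of about the same size in all libraries give like counting error. The biological coefficient of variation was larger between the NRP-1 libraries (0.225) than between the controls (0.0644). A gene with at most 3 reads in each library of a group was taken as at the floor, which covers counting error only. The genes named are the 10 members, NRP1 and the genes that overlap a member. From each of 13 lists, those called by edgeR and the 3 highest by mean FPKM over the 4 libraries are also named. Further genes were named after their values were seen (MYC network, MYC target and mammary genes called by DESeq2, and genes compared in rank). Members and lists were chosen with earlier results of these data known.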

Additional observations from a re-analysis of the deposited data

How the results depend on the processing

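The count of called genes depended on the test. Among the 10 genes, edgeR called 1, DESeq2 4, unfiltered edgeR 0 of 10 and limma 0 of 8 with either pseudocount (unadjusted p under 0.05 for 7 without the filter and for 5 in each limma fit). Over all genes the counts were 156 with edgeR, 954 with DESeq2 and 0 of 18837 without a filter (3297 at an unadjusted p under 0.05). limma called 7 genes on log2(FPKM + 1) and 3 on log2(FPKM + 0.1), with 3076 and 3065 of 14574 at an unadjusted p under 0.05. In the same order, the 8 family and pathway lists gave 3, 18, 0 of 187 (44 unadjusted), 0 and 0 (37 and 36 unadjusted). Library totals in place of TMM called 154 genes, 150 of them shared. With 1 library left out the counts ranged from 0 to 7 among the 10 genes, from 0 to 5414 over all genes and from 0 to 90 in the lists, with 0 when either control was left out (782 and 1181 genes at an unadjusted p under 0.05) and the higher counts when either NRP-1 library was left out. Such fits assume that the lone library varies like the other group. No log2 fold change of the 9 genes tested was reversed: 23 of 36 values with a library left out and 46 of 52 under the other settings kept their side of the threshold. CPM in place of FPKM moved the log2 ratio of SOX4 from -0.63 to -0.67, beyond its spread of 0.03 between replicates, and the other 8 ratios by less than theirs. limma did not test SOX2 or SOX6, whose mean FPKM is under 0.5. No paired analysis was possible because the groups share a single replicate number. Depth limits SOX2 and SOX6, with under 50 reads in every library.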
